A study of Homo sapiens with 12 samples.

Results

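The widest peaks of nuclease-dead RNaseH1 are the subject here: those of 2000 bp or more on chromosomes 1 to 22 and X. Flag ChIP-seq of RNaseH1-D210N gave 54623 peaks, of which 53030 lay on these chromosomes and 285 met the width limit. Another 9 peaks of that width lay on other sequences of the assembly and were left out. The members were chosen by a measured value, the peak width, which comes from the same list as their fold enrichment and q, so these values are descriptions only. A peak list holds no value per library, so no result below has a replicate error.

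The cells were U2OS, a human osteosarcoma line, carrying a tet-on transgene for a nuclease-dead protein, either RNaseH1-D210N or REXO4-D386A. The labels describe 12 libraries in 8 groups. Each line was grown with doxycycline at 1 µg/ml for about 60 h or without it, and each condition had 2 ChIP libraries and 1 input. All 8 groups are thus transgenic lines, and the Flag ChIP was aimed at the tagged mutant, which doxycycline induces, not at the endogenous enzyme. Each protein has 1 peak list, on hg38. The sources used here do not give the number of replicates behind it, nor the use made of the libraries without doxycycline.

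RNaseH1 cuts the RNA strand of RNA:DNA hybrids, and the D210N mutant binds such hybrids without cutting them, so it is used to map R-loops. In an R-loop the nascent RNA pairs with its template and leaves the other DNA strand single. R-loops are known at CpG island promoters, at gene ends and at genes of high polymerase traffic such as rRNA and tRNA genes. REXO4 is a nuclear protein of the RNA exonuclease family.

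Of the 262 members outside rDNA on chromosomes that the table of RefSeq starts covers, 195 (74.4%) held a listed gene start. The share was close to this in peaks of 1000 to under 2000 bp, 3420 of 4785 (71.5%). Most starts inside members had CpG-rich sequence before them. The sequences before 5 such starts are printed to show this. MIDN (midnolin), PTMA (prothymosin alpha, an abundant nuclear protein) and ACTG1 (gamma-actin) had the widest members that covered a listed protein-coding start. JUND (an AP-1 subunit) had the highest fold away from tRNA genes, and YY1 (a zinc finger transcription factor) had a member that also held REXO4 peaks. Each sequence is the 250 bases before the protein-coding start nearest to the peak's summit, from RefSeq (GRCh38.p14), 5′ to 3′ on the gene's strand. Capitals mark GGGCGG or its complement CCGCCC, the core of the GC box.
MIDN, chr19:1248333-1248582, plus strand: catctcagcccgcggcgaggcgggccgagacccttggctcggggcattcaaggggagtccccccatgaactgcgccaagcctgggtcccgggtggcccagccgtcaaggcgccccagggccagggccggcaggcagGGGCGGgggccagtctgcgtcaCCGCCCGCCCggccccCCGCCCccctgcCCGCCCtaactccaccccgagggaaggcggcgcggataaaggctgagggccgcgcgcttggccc
PTMA, chr2:231708275-231708524, plus strand: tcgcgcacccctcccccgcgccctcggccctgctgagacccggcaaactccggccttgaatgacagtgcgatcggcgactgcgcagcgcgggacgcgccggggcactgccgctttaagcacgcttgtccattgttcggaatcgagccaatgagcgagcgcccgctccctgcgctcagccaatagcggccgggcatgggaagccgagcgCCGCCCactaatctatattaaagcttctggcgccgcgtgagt
ACTG1, chr17:81512800-81513049, minus strand: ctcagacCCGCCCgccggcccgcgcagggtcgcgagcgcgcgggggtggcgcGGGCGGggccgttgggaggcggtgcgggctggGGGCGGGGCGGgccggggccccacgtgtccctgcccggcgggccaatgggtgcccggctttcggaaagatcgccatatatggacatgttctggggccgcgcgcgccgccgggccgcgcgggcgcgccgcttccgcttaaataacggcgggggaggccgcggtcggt
JUND, chr19:18281623-18281872, minus strand: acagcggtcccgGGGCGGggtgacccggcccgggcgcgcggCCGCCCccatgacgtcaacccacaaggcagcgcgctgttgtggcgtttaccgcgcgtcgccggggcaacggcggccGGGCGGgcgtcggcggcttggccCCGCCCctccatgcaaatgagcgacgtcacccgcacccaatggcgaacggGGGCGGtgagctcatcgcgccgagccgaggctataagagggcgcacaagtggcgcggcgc
YY1, chr14:100238894-100239143, plus strand: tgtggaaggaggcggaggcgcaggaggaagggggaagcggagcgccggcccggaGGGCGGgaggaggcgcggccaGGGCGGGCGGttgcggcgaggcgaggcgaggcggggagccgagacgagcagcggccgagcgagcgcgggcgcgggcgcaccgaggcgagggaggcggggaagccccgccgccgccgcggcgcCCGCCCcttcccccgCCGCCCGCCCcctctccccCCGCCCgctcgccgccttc

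These 250-base windows held 25 CG dinucleotides at MIDN, 32 at PTMA, 40 at JUND, and 43 at both ACTG1 and YY1. GGGCGG, counted on both strands with overlapping matches included, occurred 5 times at MIDN, 1 time at PTMA, 4 times at ACTG1, 5 times at JUND and 7 times at YY1. None of the 5 windows held TATAAA. Over all 308 listed protein-coding starts inside members (217 genes), the median window had 27.5 CG dinucleotides (interquartile range 21 to 34) and 72% G+C (66.4 to 76.8). The range among these starts was wide, from 6 CG dinucleotides at LOC124908044 to 50 at 1 start of PTBP1.

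This base composition was shared with peaks of middle width. Starts in RNaseH1 peaks of 1000 to under 2000 bp had a median of 27 CG dinucleotides and 70.8% G+C, those in peaks under 1000 bp had 21 and 64.8%, and those in no peak had 5 and 52.8%. GGGCGG on either strand was in 87.7% of windows inside members and in 80.6%, 71.2% and 29.2% of the other 3 kinds, against 53.7% of all 22132 protein-coding starts listed. TATAAA on either strand was in 3.57% of the windows inside members and in 9% of all of them. Several starts can belong to 1 gene, so the windows are not independent. A match is a description of letters, and factor binding was not measured.

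The members were 2000 to 6228 bp wide, with a median of 2227 bp, and 64 of them reached 2500 bp. Of the 27 that reached 3000 bp, 8 had their summit at a protein-coding boundary, 6 in rDNA-bearing sequence, 6 inside a gene and 4 at tRNA genes. All 285 members together covered 686058 bp, 2.53% of all sequence in RNaseH1 peaks on these chromosomes. Their fold enrichment, the authors' ratio at the summit over the expected pileup, had a median of 3.26 (interquartile range 2.83 to 4.11), near the 3.06 of the narrower peaks. A median member rested on 113 fragments at its summit against 33.3 expected, while a median narrower peak rested on 23 against 7.14 and a median peak of 1000 to under 2000 bp on 98 against 29.8. Members thus differed from narrower peaks more in depth than in fold. Fragments were computed back from the fold and p of each peak, and the 95% Poisson intervals of folds below come from them. Intervals cover counting error only.

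Across all 53030 peaks, width had a Spearman correlation of 0.663 with expected pileup and 0.0568 with fold. Within the 285 members, width had 0.0526 with expected pileup and 0.0779 with fold, so neither value ordered the members by width. All points come from 1 peak list. The limit of 2000 bp cuts a continuous distribution. The members just inside it lay at LRRC26 (2000 bp, fold 2.715), THRB (2001 bp, 4.426) and EIF5 (2005 bp, 3.397). The peaks just outside it lay at TPM2 (1998 bp, 5.208), TMEM51 (1998 bp, 2.964) and CARS2 (1995 bp, 3.087).

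**Figure D1:**
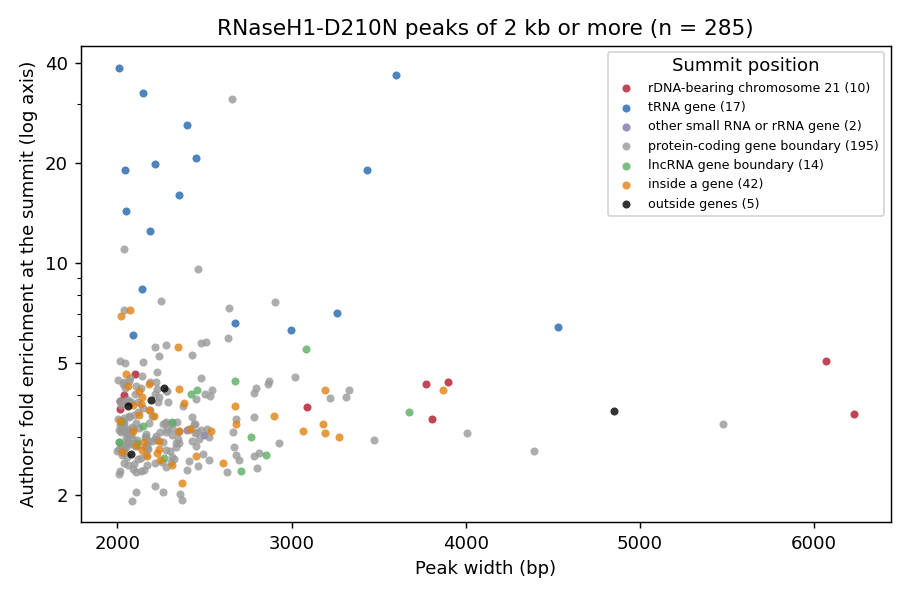
Width in bp (x axis) and the authors' fold enrichment (y axis, log scale) of the 285 RNaseH1 peaks of 2 kb or more, 1 point per peak, coloured by where the summit lies. The peaks at tRNA genes reach 38.65, the widest peaks at rRNA genes stay between 3.39 and 5.07, and most others lie under a fold of 5.

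By summit, 195 of the 285 members (68.4%, 95% exact binomial interval 62.7 to 73.8) lay within 1 kb of a boundary of a protein-coding gene. Another 14 (4.91%) lay at a lncRNA boundary only, 42 (14.7%) inside a gene away from its boundaries, and 5 (1.75%) outside genes. Boundaries are the outermost ends of a gene, so a summit inside a gene can still lie near an internal start. Of the 37 members inside genes off chromosome 8, 24 held a listed gene start. The remaining classes were tRNA genes with 17 members (5.96%), rDNA-bearing sequence of chromosome 21 below 9 Mb with 10 (3.51%), and other small RNA or rRNA genes with 2. Each summit was given to 1 class, with rDNA and tRNA taken first. The intervals of shares treat peaks as independent, which neighbouring peaks are not.

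Counted without that order, 217 of 285 summits (76.1%, 70.8 to 81) lay within 1 kb of a protein-coding or lncRNA boundary, against 31.3% of all RNaseH1 peaks. Peaks of 1000 to under 2000 bp had nearly the same share as the members, 77.2% (76 to 78.3), and their interval lies inside that of the members. Peaks under 500 bp had 16.2% (15.8 to 16.6). The share at tRNA genes differed more between the widest classes, at 5.96% of members (3.51 to 9.38), 1.95% of peaks of 1000 to under 2000 bp (1.59 to 2.37) and 0.571% of all peaks. The rDNA-bearing share was 3.51% of members (1.7 to 6.36) and 0.339% of peaks of 1000 to under 2000 bp (0.197 to 0.542).

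**Figure D2:**
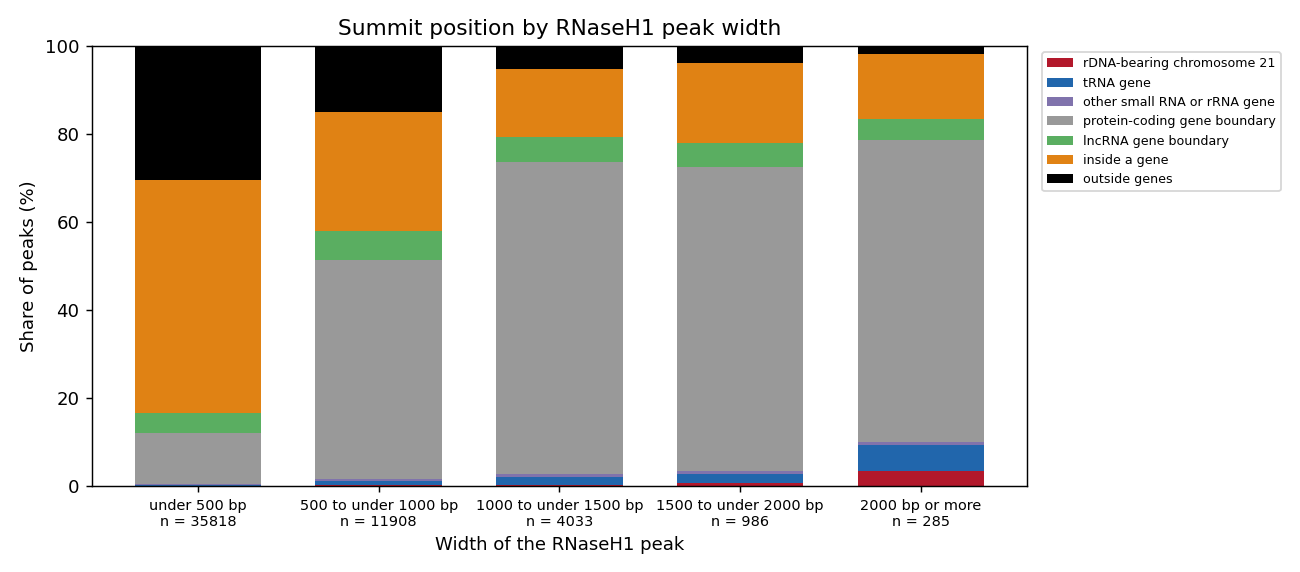
Share of RNaseH1 peaks (y axis, %) by summit position in 5 classes of peak width (x axis), each peak in 1 class. Protein-coding gene boundaries take 11.7% of peaks under 500 bp, 70.8% of those of 1000 to under 1500 bp and 68.4% of those of 2000 bp or more, while the tRNA and rDNA bands are thickest in the widest class.

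By chromosome, members were most numerous on chromosomes 17 (32), 19 (24) and 16 (20). Relative to all RNaseH1 peaks of a chromosome, chromosome 21 led with 14 of 715 (1.96%), 10 of which lay in rDNA-bearing sequence. Chromosome 17 followed with 0.89%, and chromosome 18 had 1 member among 893 peaks (0.112%).

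Where gene starts and ends could be told apart, most broad peaks with a summit near either had it near a start. The table of RefSeq starts used here gives strand and start sites for 15812 protein-coding genes, with none on chromosome 8, and it lacks some genes on other chromosomes. Outside the rDNA and tRNA classes and chromosome 8, 186 of 245 members had a summit within 1 kb of a listed start or of the far end of such a gene. Of these 186, 178 (95.7%) were at a start, some of them also at an end, and 8 at an end only. Taken the same way, the shares at a start were 98.3% for peaks of 1000 to under 2000 bp, 78.9% for peaks under 500 bp and 90.4% for all narrower peaks. A gene can have several listed starts but has 1 far end. Over all 245 members, 72.7% were at a start and 3.27% at an end only. Peaks of 1000 to under 2000 bp had 74.3% and 1.26%. Counted by genes, 225 of the 15812 (1.42%) had a start within 1 kb of a member and 40 (0.253%) had their far end there. Of those 40, 19 had both, and the other 21 had only the end at a member. At 13 of these 21 the member also lay within 1 kb of a listed start of another gene. These counts of genes ask only that the peak lie within 1 kb, wherever its summit is.

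In 180 members a listed protein-coding start lay inside the peak. These peaks reached a median of 1033 bp upstream of the start nearest to the summit (interquartile range 676.5 to 1426) and 1210 bp downstream (832.2 to 1612). In 102 of the 180 (56.7%) the longer arm pointed into the gene. Among 3226 peaks of 1000 to under 2000 bp with a start inside, the medians were 549 bp upstream and 708 bp downstream, and 62.5% had the longer arm downstream. The summit lay downstream of the start in 115 of the 180 members (63.9%) and in 74.7% of the peaks of 1000 to under 2000 bp. The longer arms follow from the width limit that chose the members and are no finding; the split between the sides is given as a description.

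**Figure D3:**
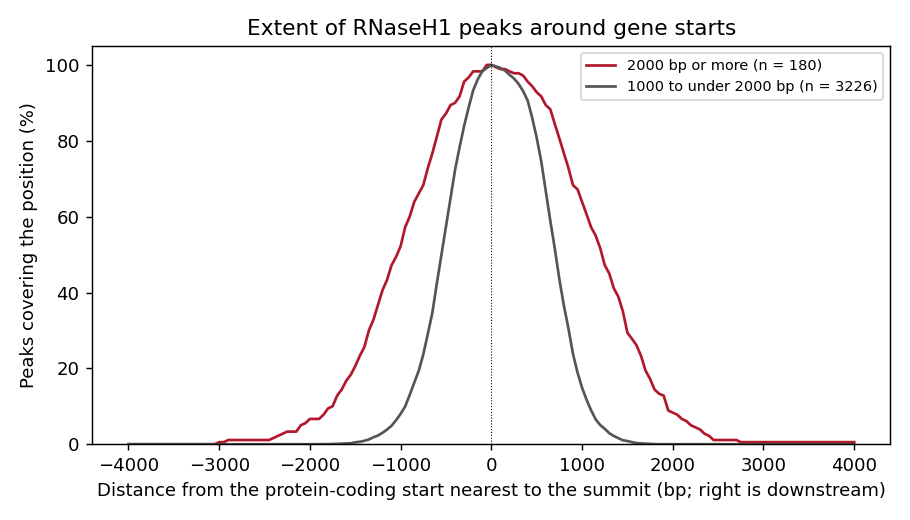
Share of peaks (y axis, %) that cover each distance from the protein-coding start nearest to the summit (x axis, bp, downstream to the right), for 180 peaks of 2000 bp or more and 3226 peaks of 1000 to under 2000 bp with a start inside. At 1000 bp upstream 52.2% of the broad peaks and 8% of the others cover the position, and at 1000 bp downstream 63.9% and 14.9% do, a contrast that the width limit largely sets.

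The asymmetry differed from gene to gene. The peak at MIDN, a nuclear protein gene on chromosome 19, ran from 1248027 to 1253501 and was the widest outside rDNA at 5475 bp. It began 556 bp before the MIDN start, ran 4918 bp into the gene and covered 46.6% of it, with a fold of 3.262 (2.69 to 3.92, 111 fragments against 33.3). The peak at ACTG1 on chromosome 17 (81511823 to 81515827, fold 3.072, 2.69 to 3.5) did the reverse, with 3028 bp upstream and 976 bp inside the gene. The peak over PTMA on chromosome 2 (231706377 to 231711229, 4853 bp, fold 3.593, 3.19 to 4.03) covered the start, but its summit lay at -1735 bp from it, so the summit counted as outside genes. The long arm thus lay in the gene body at MIDN and upstream at ACTG1.

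Other wide members showed further arrangements. At TRIM8, a ubiquitin ligase gene on chromosome 10, a peak of 4393 bp (102642102 to 102646494, fold 2.71, 2.27 to 3.21) contained the whole divergent lncRNA gene TRIM8-DT. At JADE2, a gene of histone acetyltransferase complexes on chromosome 5, a peak of 3673 bp (134524184 to 134527856, fold 3.557, 2.8 to 4.45) covered the starts of JADE2 and of LOC124901070 on the opposite strand. The peak in BCOR, a transcriptional corepressor gene on chromosome X, had its summit 24137 bp from the nearest gene boundary (40152923 to 40156793, 3871 bp, fold 4.137, 3.04 to 5.51).

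Starts on both strands lay inside 75 of 262 members outside rDNA and chromosome 8 (28.6%) and inside 997 of 4785 peaks of 1000 to under 2000 bp (20.8%). A wider peak has more room to hold 2 starts. Divergent transcript lncRNA genes, whose symbols end in -DT, had a member at a boundary in 20 of 590 cases (3.39%), and antisense lncRNA genes in 27 of 2043 (1.32%), against 0.525% of all 17904 lncRNA genes. GAPDH-DT, ACTN1-DT, PFKP-DT and YY1-DT were among the first group, and their protein-coding partners had the same members. Of the other noncoding genes and pseudogenes, 41 of 20265 (0.202%) had a member at a boundary.

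Among protein-coding genes, 302 of 19821 (1.52%) had a member at a boundary, while 67.3% had an RNaseH1 peak of any width there. A gene fits inside a member only if it is shorter than the peak, so the counts that follow depend on gene length. Members contained 5 of the 19821 protein-coding genes, among them HES4 (a Notch pathway repressor) and TNFRSF12A (the TWEAK receptor). They contained 15 of 1911 microRNA genes, 47 of 429 tRNA genes and 6 of 29 rRNA genes. The others were the minor spliceosome RNA gene RNU6ATAC (of 149 snRNA genes), the lncRNA gene TRIM8-DT (of 17904) and 1 pseudogene, LOC110467529 (of 15048). JUND was covered over 84.7% of its length and PIM3, a serine/threonine kinase gene, over 71.1%.

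The genes were described by 23 lists, with 432 genes in all. The lists were drawn up with earlier results of these data known. Of the 432 genes, 32 (7.41%) had a member at a boundary, the outermost start or end that the gene table gives, and 370 had a peak of any width there. Counting any overlap with the gene as well, chosen after seeing the data, 34 of the 432 genes and 329 protein-coding genes (1.66%) had a member. The 2 genes this added were CDKN1A, a cell cycle inhibitor gene of the stress list (2425 bp, fold 4.038), and MYC, of the MYC network (2141 bp, fold 2.731). Expression was not measured here, so the listed genes could not be set beside genes of like expression. The share of 1.52% over all protein-coding genes is the only background given. Some lists of transcriptional regulators held several members, while the MYC network (1 of 12) and HOX genes (1 of 18) had 1 each. KLF and SP factors, which bind GC-rich elements, had 4 of 16: SP3 (2540 bp), KLF4 (2213 bp), KLF3 (2078 bp) and KLF15 (2051 bp). ID and HES repressors had 3 of 12, namely HES7, BHLHE40 and HES4. HES7 had only its far end there, at a member of the tRNA class described below. AP-1 and immediate early factors had 3 of 19, namely JUND, EGR1 and FOSL2.

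The member at JUND (18279989 to 18282647 on chromosome 19, 2659 bp) had a fold of 31.14 (29.6 to 32.8), with 1476 fragments against 46.4 expected. It was the highest outside the tRNA class. Only 2 of the 258 members outside the rDNA and tRNA classes had a fold of 10 or more, and the other lay at FKBP2, an endoplasmic reticulum prolyl isomerase gene (10.98, 9.92 to 12.1). SYNCRIP, an RNA-binding protein gene, followed at 9.549 (8.39 to 10.8). EGR1, a growth-factor-induced zinc finger gene, had 7.664 (6.59 to 8.86) and FOXO3, a forkhead factor gene, 7.596 (6.52 to 8.8). FKBP2, SYNCRIP and FOXO3 were picked out after their values were seen. At EGR1 the peak (138463813 to 138466061 on chromosome 5) reached 1666 bp upstream of the start and 582 bp into the gene.

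Among cytoskeletal genes, 4 of 20 had a member: ACTG1, CNN2 (a calponin, 2683 bp), ACTN1 (an actin crosslinker, 2217 bp) and ACTB (beta-actin, 2049 bp). The list of SR proteins and hnRNPs, which bind nascent RNA, had 3 of 20. They were PTBP1 (3223 bp, fold 3.91), HNRNPF (2262 bp, 3.26) and HNRNPU (2039 bp, 2.51). The list does not hold the whole family: HNRNPDL (2529 bp), SYNCRIP (2461 bp) and HNRNPA0 (2105 bp), outside it, also had members. Glycolysis genes had 2 of 17, GAPDH (2356 bp) and PFKP (2313 bp), and DNA replication genes had 2 of 22, the licensing factor gene CDT1 (2458 bp) and the polymerase gene POLE (2175 bp). ERK and EGF receptor feedback inhibitors had 2 of 19, SOCS2 and TRIB1.

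Several lists had 1 member each. They were MNT, a MAX partner (3021 bp, fold 4.53), for the MYC network (1 of 12 by boundary, without MYC itself), GADD45B for the stress response (1 of 16 by boundary, without CDKN1A), and UBTF, the polymerase I factor, for nucleolar genes (1 of 20). They were also RPL7 for ribosomal proteins (1 of 20), EIF5 for translation factors (1 of 18), HOXB9 for HOX genes (1 of 18), COL1A1 for collagens and bone matrix (1 of 19) and RNU6ATAC for spliceosomal, 7SK and 7SL RNAs (1 of 22). R-loop processing factors had 1 of 27, the RNA helicase gene DDX5 (2239 bp, fold 2.745, 2.35 to 3.19), although 26 of the 27 had a peak of some width.

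Other lists with peaks at most genes had none of 2 kb or more. Over all genes the shares with a member were 1.52% for protein-coding and 0.525% for lncRNA genes. At such shares, 0 members in lists this small is no result about the lists. All 16 replication-dependent histone genes had a peak, with a median of 450 bp for the widest peak at each. The 21 snoRNA host and nuclear lncRNA genes had 20 with a peak, with a median of 836.5 bp. The heat shock and chaperone list had 14 of 17, with a median of 1421 bp, and 0 members. The same measure had a median of 837 bp over all 13336 protein-coding genes with a peak. NF-kB targets (0 of 14) and growth factors (0 of 16) also had no member. Of the 32 genes of other tissues, 6 had a peak and 0 had a member.

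The 17 members at tRNA genes had a median fold of 16, the highest of the classes with 10 or more members. High folds at tRNA genes were not particular to this width. The 20 tRNA peaks of 1500 to under 2000 bp had a median of 17.5 and reached 40.1. The 98 of 1000 to under 2000 bp had a median of 13.1. The 17 members contained 47 tRNA genes, 1 to 5 in each peak, and lay on 7 chromosomes. By boundary, 50 of 429 tRNA genes (11.7%) had a member. The member over TRD-GTC2-10 and TRA-TGC4-1 on chromosome 12 (124939061 to 124941069) had a fold of 38.65 (36.8 to 40.6), with 1579 fragments against 39.9. On the same chromosome, the member over TRF-GAA1-4 and TRD-GTC2-9 (124926507 to 124928652) had 32.45 (29.8 to 35.3). Both members contained 2 neighbouring tRNA genes each.

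On chromosome 17, 1 member lay over TRK-TTT3-5, TRQ-CTG1-5, TRL-TAG1-1 and TRR-TCT2-1 (8118665 to 8122266, 3602 bp, fold 36.65, 33.7 to 39.7). It overlapped the far end of HES7 (8120592 to 8126634) and also covered a listed start of ALOXE3, an epidermal lipoxygenase gene. Another member there covered TRW-CCA1-1, TRG-TCC3-1, TRD-GTC2-11 and TRP-CGG1-3 (8220362 to 8223794, fold 18.95), and another TRR-CCT1-1, TRR-CCT2-1 and TRR-TCG3-1 (75033519 to 75035919, fold 25.96). The members named by nearest gene as LASP1 (19.83) and HCG11 (18.95) each contained 1 tRNA gene, TRC-GCA4-1 and TRL-CAG1-7. The member at TRP-TGG3-4 on chromosome 16 had 20.7, and the one at TRK-CTT2-1 on chromosome 1 had 15.96.

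The 10 members in rDNA-bearing sequence of chromosome 21 were the widest by class, with a median of 3430 bp. They covered parts of RNA45SN1, RNA45SN2 and RNA45SN3, the genes of the 45S rRNA precursor, and other sequence of that region. The widest of all contained RNA28SN2 (8213724 to 8219951, 6228 bp, fold 3.501, 3.36 to 3.65), followed by the one containing RNA28SN1 (8441061 to 8447131, 6071 bp, fold 5.066, 4.86 to 5.28). Their folds were moderate, 3.39 to 5.07, on a median of 444 expected fragments, against 33.3 for all members. The rRNA genes are a multigene family of nearly identical units, so the placing of fragments among them is uncertain.

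REXO4 peaks overlapped 44 of the 285 members by at least 1 bp, 15.4% (11.4 to 20.2), against 1.97% of all RNaseH1 peaks, 1.9% of the narrower ones and 7.57% (6.85 to 8.34) of those of 1000 to under 2000 bp. A wide peak has more room for an overlap. Within 150 bp of the summit, a window of the same size for every peak, a REXO4 peak lay at 29 members, 10.2% (6.92 to 14.3), against 1.69% of all peaks and 5.74% (5.11 to 6.42) of those of 1000 to under 2000 bp. The 51 REXO4 peaks that overlapped a member were 3.7% of the 1380 REXO4 peaks on these chromosomes. The share of RNaseH1 peaks with a REXO4 overlap rose through the width classes, from 0.575% under 500 bp to 3.48%, 6.94%, 10.1% and 15.4%.

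All 10 rDNA members overlapped REXO4. So did 4 of the 17 tRNA members (23.5%, 6.81 to 49.9), 9 of the 42 members inside genes (21.4%, 10.3 to 36.8) and 19 of the 195 at protein-coding boundaries (9.74%, 5.97 to 14.8), and these 3 intervals overlap. Peaks of 1000 to under 2000 bp had 12 of 17 in rDNA (70.6%, 44 to 89.7) and 2 of 98 at tRNA genes (2.04%, 0.248 to 7.18). They had 73 of 803 inside genes (9.09%, 7.19 to 11.3) and 258 of 3534 at protein-coding boundaries (7.3%, 6.46 to 8.21). The rDNA members named by RNA45SN1 and RNA18SN1 overlapped the same REXO4 peak (8432190 to 8447132). Outside the rDNA and tRNA classes, 30 of 258 members overlapped REXO4, 11.6% (7.98 to 16.2), against 7.46% (6.74 to 8.23) of peaks of 1000 to under 2000 bp. Within 150 bp of the summit it was 18 of 258, 6.98% (4.19 to 10.8), against 5.67% (5.04 to 6.35). In both comparisons the intervals overlap. Per Mb of peak sequence there were 54.4 REXO4 overlaps in these members, 58.3 in peaks of 1000 to under 2000 bp and 36.9 in all narrower peaks. Expected pileup also moved with overlap: 240 of the 285 members were in the highest of 5 bins of expected pileup. Weighted to the members' bins, narrower peaks overlapped in 5.53% of cases, which lowered the ratio of shares from 8.14 to 2.79. The part of pileup in the overlap was not tested.

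**Figure D4:**
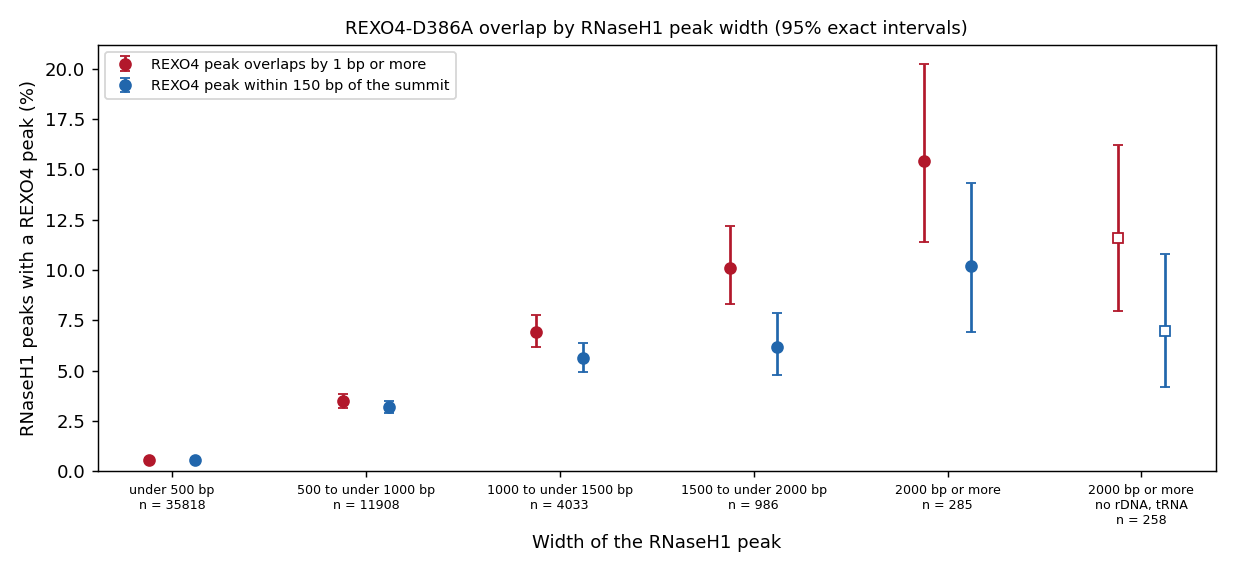
Share of RNaseH1 peaks (y axis, %) with a REXO4 peak by RNaseH1 peak width (x axis), by overlap of 1 bp or more (red) and within 150 bp of the summit (blue), with 95% exact binomial intervals. Open squares leave out the rDNA and tRNA classes, which lowers the widest class from 15.4% to 11.6% and from 10.2% to 6.98%.

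In rDNA the REXO4 peaks were broad too. All 8 REXO4 peaks of 2 kb or more on these chromosomes lay in the rDNA-bearing sequence of chromosome 21 and overlapped a member. The median REXO4 fold at the rDNA members was 6.09, against 2.28 for the REXO4 list. At tRNA genes, the 4 members with a REXO4 overlap were neighbours on chromosome 1. They held TRE-CTC1-2 (161446730 to 161449989), TRE-CTC1-3 (161454001 to 161456674), TRE-CTC1-4 (161461367 to 161465894) and TRE-CTC1-5 (161468851 to 161471846), each with tRNA genes for Gly, Asp and Leu beside it. Each overlapped 2 REXO4 peaks, of which the more significant had a fold of 2.13 to 3.14. Their RNaseH1 folds were 6.28 to 7.04, near the low end of the tRNA class, and their expected pileups of 109 to 183 fragments were the highest of it. These 4 hold the same kinds of tRNA gene in neighbouring units, so they are not 4 independent loci. The 13 tRNA members elsewhere had folds of 6.07 to 38.65 and 0 REXO4 overlaps.

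At the other 30 members, REXO4 folds were low, with a median of 1.89 over 33 REXO4 peaks, below the 2.28 of the REXO4 list. The REXO4 peaks were narrow, with a median of 377 bp, and took only part of the RNaseH1 peak. Their summits lay a median of 246 bp from the RNaseH1 summit (interquartile range 64 to 878). These members were at 19 protein-coding boundaries, 2 lncRNA boundaries and 9 positions inside genes. Of those 9, the members at GNAS, FOXD1, SP3, DDX5, PITPNC1 and ZBTB7A held a listed gene start. The genes below were picked out after their values were seen. At IGF1R, the insulin-like growth factor receptor gene on chromosome 15, the REXO4 fold was 2.54 in a member of 2278 bp with an RNaseH1 fold of 4.102 (3.31 to 5.03). At SP3 it was 2.49, with an RNaseH1 fold of 3.118.

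The member at YY1 and YY1-DT on chromosome 14 (100237995 to 100240789) overlapped 2 REXO4 peaks, the more significant with a fold of 2.31, at an RNaseH1 fold of 4.193 (3.46 to 5.03). At DDX5, the R-loop helicase gene, REXO4 had 1.81 and RNaseH1 2.745. At NOTCH1, REXO4 had 1.67 and RNaseH1 3.86. The member inside GNAS, an imprinted signalling gene on chromosome 20 (58888436 to 58891625), had a REXO4 peak of fold 1.8 at its RNaseH1 summit. That summit lay 2270 bp downstream of the nearest listed protein-coding start, and starts that are not listed could lie closer. Folds are compared within each list only. None of MIDN, PTMA, ACTG1, JUND, TRIM8 and BCOR had a REXO4 overlap.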

How the data were processed

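Peaks, not reads, were analysed. The submitters' processing notes name MACS2 (2.1.0.20150731) and HISAT2 (2.2.1), besides Trim Galore (0.6.10), SAMtools (1.17), deepTools (3.5.1), Cufflinks and hg38. Control, threshold and pooling are not stated there; the largest deposited q was 0.198 for RNaseH1 and 0.179 for REXO4. Each peak's fold (a ratio), −log10 p and −log10 q are the authors' deposited values. The deposited score was not used. Width is end minus start, and adjoining peaks were not joined.

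For each peak, the whole fragment number was sought whose Poisson tail matches the deposited p at the deposited fold, with 1 added to fragments and to expected pileup and a tolerance of 0.05 fragments. One was found for all 53030 RNaseH1 peaks, and the method was tested on simulated data. Genes (58419) and starts (34961) came from RefSeq GRCh38.p14. Named genes were the nearest to the summits of the 12 widest members, the 10 of highest fold and the 10 with the lowest REXO4 q, up to 4 per list, and 3 peaks on each side of the width limit; rDNA was named as a group. The members and lists were chosen with earlier results of these data known, and no test was run on them. Shares have exact binomial intervals. Alternatives covered the width limit, q, joining, overlap and windows. Computing used SciPy 1.17.1, NumPy 2.4.6 and pandas 2.3.3 under Python 3.11.15, and matplotlib 3.10.9.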

Additional observations from a re-analysis of the deposited data

How the results depend on the processing

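The members' REXO4 overlap stayed above that of all narrower peaks under every alternative run, but its size moved. Those narrower peaks had a median width of 363 bp, so the runs do not set members beside the next width class. Without rDNA and tRNA, members had 11.6% and peaks of 1000 to under 2000 bp 7.46%. Within 150 bp of the summit they had 6.98% and 5.67%, and per Mb of peak sequence 54.4 and 58.3 overlaps. The members' overlap was 15.4% as reported, 11.3% with a width limit of 1500 bp, 40.7% with 3000 bp (11 of 27 peaks) and 10.6% with q of 1e-05 or less in both lists. Within 150 bp of the summit, 10.2% became 25.9% with 3000 bp, 6.91% without chromosome 21 below 9 Mb and 6.12% with peaks within 500 bp joined. Within bins of expected pileup the ratios to narrower peaks went from 8.14 to 2.79 and from 6.18 to 2.15. The share of summits at a gene boundary, 76.1%, became 40.7% with 3000 bp, 65.3% with joined peaks, 57.2% with a boundary window of 500 bp, 87.4% with 2500 bp and, in an alternative chosen after seeing the data, 81.8% without the rDNA and tRNA classes. The 302 protein-coding genes became 1238 with 1500 bp, 16 with 3000 bp and 931 with joined peaks, and the 32 listed genes became 100, 4 and 82. The causes were not tested, beyond that a lower limit or joining takes in more peaks. The other 22 values stayed within the interval of the reported share or within 1.5 times the count. No paired analysis was possible because the peak lists hold no values per replicate, and for the same reason no replicate could be left out. Depth limits single folds: the interval was 3.04 to 5.51 at BCOR (45 fragments) and 29.6 to 32.8 at JUND (1476).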
